A study of Callithrix jacchus with 39 samples.

Results

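The genes described here encode carriers that move sugars, amino acids, lactate and related monocarboxylates across cell membranes. They were chosen by name, as every gene ID whose marmoset symbol belongs to the solute carrier (SLC) families SLC1, SLC2, SLC3, SLC5, SLC6, SLC7, SLC16, SLC38 or SLC43. The rule uses no measured value, although the families were picked with earlier results of these data known. The rule found 83 of the 30811 gene IDs in the count tables. Only 12660 IDs (41.1%) have a symbol, so a family member without one was not analysed here. By family there were 17 SLC6, 13 SLC7, 11 SLC2, 11 SLC16, 10 SLC38, 9 SLC5, 7 SLC1, 3 SLC43 and 2 SLC3 genes. A total of 81 are carriers. The other 2 match by name alone: SLC2A4RG is a transcriptional regulator, and SLC7A6OS is transcribed from the strand opposite SLC7A6, whose reads overlap it.

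The study sequenced poly(A)+ RNA of the common marmoset, Callithrix jacchus, a small New World primate, to examine the conversion of its embryonic stem cells (ESCs) from a primed to a naive-like state. There were 39 libraries in 13 groups of 3. Of these, 6 groups are ESCs: 4 primed ones (DSY127, No.40, and DSY-c2 and N40, both with Tg in their titles) and 2 naive ones, DSY-c2 with TgON and N40 with TgOFF. Tg is not explained in the labels, and the effect of TgON against TgOFF cannot be told apart from that of the line. The other 7 groups are embryo samples, namely morula, inner cell mass (ICM) at the early, blastocyst, expanded, hatching and hatched blastocyst stages, and epiblast after implantation. Nothing in the labels ties a library to its own culture or embryo, so the p-values reflect the spread among these libraries and that spread may be technical.

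Glucose enters most cells passively through the SLC2 (GLUT) carriers, while SLC5 carriers pull sugars, vitamins and lactate inward with sodium. The SLC16 monocarboxylate carriers (MCTs) move lactate and pyruvate with protons, and the lactate carriers among them need a small membrane glycoprotein to reach the cell surface. Amino acids use sodium-coupled importers (SLC1, SLC6, SLC38), and exchangers in which an SLC7 light chain is joined to an SLC3 heavy chain. In early mammalian embryos pyruvate and lactate are the main fuels before the blastocyst forms, and glucose uptake rises around implantation.

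Levels are CPM, counts scaled to a library total of 1e6, with library sizes adjusted by TMM, a method that aligns the bulk of genes between libraries. CPM ranks libraries for 1 gene and does not rank genes, because transcript lengths were not used. Total counts were 38.8 to 78.7 M (M for 1e6) per ESC library and 45.3 to 59 M per embryo library. POU5F1, a pluripotency factor, had group means of 578 to 1589 CPM. In both lines all 5 naive markers tested were higher and all 4 primed markers lower in naive cells. The first hatched ICM library stood apart: its summed pluripotency markers were 630 CPM against 2416 and 2702 CPM in the other two, its trophectoderm markers 1421 against 225 and 594 CPM, and its primitive endoderm markers 6445 against 1708 and 2878 CPM. Spread between libraries was wide in the ICM. Among members with a mean of at least 10 CPM the median coefficient of variation was 41.3% to 70% over the 5 ICM stages, 12.5% in the epiblast and 10.3% to 16.6% in the ESC groups.

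Most of the carriers were detected somewhere. A mean of at least 10 CPM was reached in some group by 54 members, of which the heat map by library shows 53, and 11 members stayed below 1 CPM in every group. The filter on low counts left 78 members in the ESC fit and 76 in the embryo fit, with 73 in both and 2, SLC2A7 and SLC6A5, in neither. The epiblast held the highest mean for 15 of the members above 1 CPM, the morula for 9, DSY127 and DSY-c2 primed cells for 8 each and DSY-c2 naive cells for 7.

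**Figure D1:**
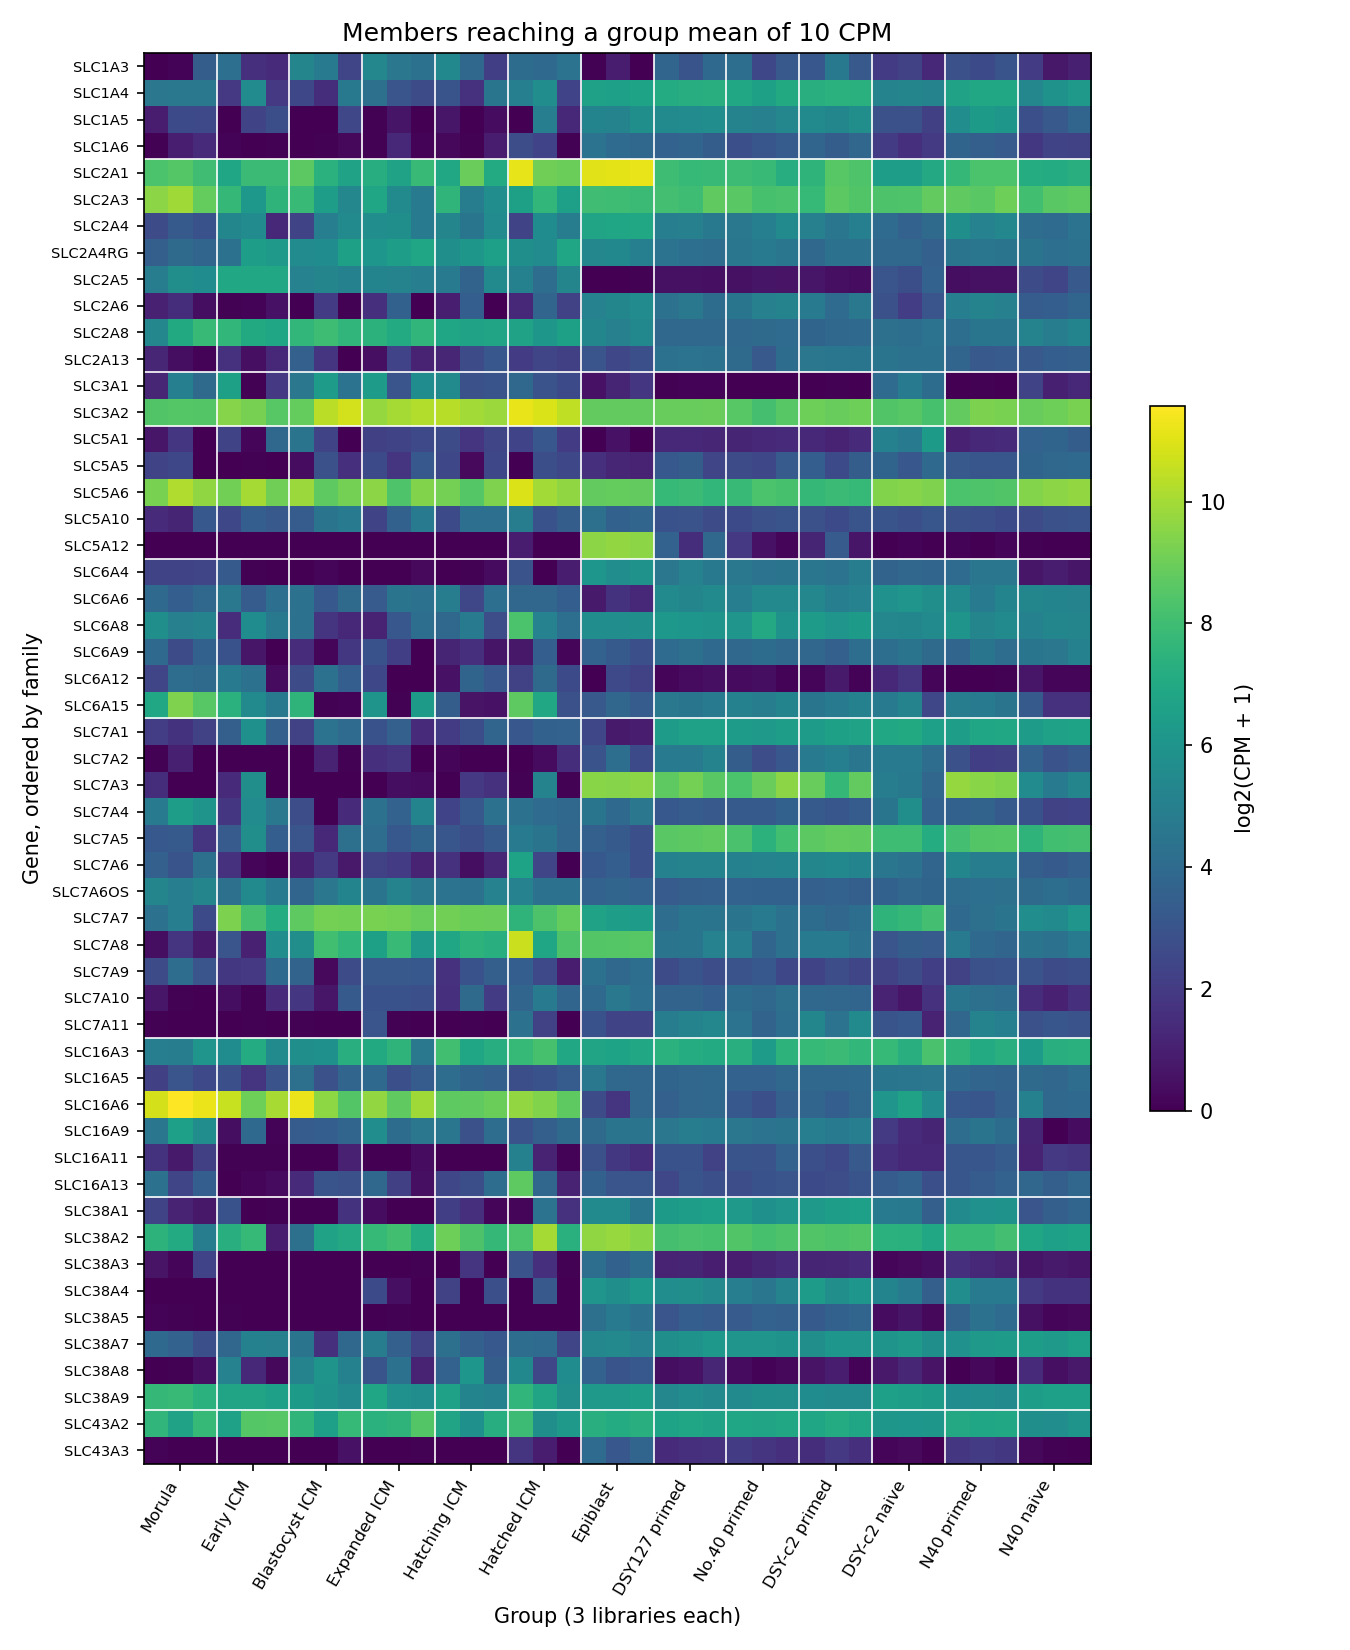
Levels of 53 of the 54 members with a group mean of at least 10 CPM, on a log2(CPM + 1) colour scale. Rows are genes ordered by family, and columns are the 39 libraries in 13 groups of 3, separated by white lines. Many amino acid carriers are dark from morula to hatched ICM and bright in the epiblast and in primed cells, and ICM columns of 1 stage differ more among themselves than ESC columns do.

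Conversion to the naive state was accompanied by lower levels of most carriers whose level changed. In DSY-c2, 41 of 78 tested members were lower and 15 higher in naive than in primed cells (edgeR, adjusted p under 0.05). Over all genes 58.8% were called, 29.3% lower and 29.6% higher, and the median log2 fold change was -0.81 for the members and 0.03 for all genes. In N40, 31 members were lower and 17 higher, against 61% of all genes called, 28.7% lower and 32.3% higher, with medians of -0.34 and 0.09. All 7 SLC1 carriers of glutamate and neutral amino acids were lower in DSY-c2 and 6 of them in N40. The seventh, SLC1A7, averaged 0.66 CPM in DSY-c2 primed and 0.16 CPM in DSY-c2 naive cells (adjusted p = 0.0434). Its call was kept in only 7 of 12 alternative fits. Of 9 tested SLC38 genes 5 were lower in each line and 2 higher, and of 13 SLC7 genes 7 were lower in DSY-c2 and 6 in N40, with 2 higher in each. The SLC5 family differed from this: of 8 tested members 2 were higher and 2 lower in DSY-c2, and 5 were higher in N40. Some of these calls were weak. SLC5A2 in DSY-c2 kept its lower call in 7 of 12 alternative fits. In N40 SLC5A5 kept its call in 6 and SLC5A8 in 9 of 13, and SLC5A11 averaged only 0.524 CPM in naive cells. SLC5A1 and SLC5A6 in both lines, and SLC5A12 in DSY-c2, were called in every alternative fit. SLC2 had 5 lower and 2 higher of 9 in DSY-c2 and 4 and 2 in N40. The 5 include SLC2A4RG, which is no carrier. Its call was kept in 7 of 12 alternative fits, and it was not called in N40. SLC6 had 8 lower and 3 higher of 16 in DSY-c2, then 6 and 3 in N40. SLC16 had 4 lower and 3 higher of 11, then 2 and 1.

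These are bulk libraries, in which fewer cells of a type and less RNA per cell cannot be told apart. Summed markers of other cell types differed between the states, except that the trophectoderm sums overlapped in DSY-c2. In each list markers were called in both directions, so a sum does not give the direction of most of its markers. The 5 mesenchyme and feeder markers summed to 293 to 376 CPM in DSY-c2 primed and 71.6 to 199.5 CPM in DSY-c2 naive libraries, and to 500 to 779 and 192 to 477 CPM in N40. Of them 1 was higher and 2 lower in DSY-c2, and 3 and 1 in N40. The 7 primitive endoderm markers went from 811 to 1994 CPM down to 378 to 590 CPM in DSY-c2, and from 1131 to 1277 down to 184 to 257 CPM in N40, with 2 higher and 2 lower in DSY-c2 and 3 and 1 in N40. The 5 trophectoderm markers went from 71.8 to 126 CPM to 17.1 to 189 CPM in DSY-c2 (2 higher, 1 lower) and from 9.36 to 13.7 CPM to 49.7 to 88.8 CPM in N40 (4 higher, 1 lower). DCN, a stromal proteoglycan among the mesenchyme markers, averaged 0.742 CPM in DSY-c2 primed and 0.00869 CPM in N40 primed cells. The sum of the 5 mesenchyme markers went the other way, being higher in N40 primed than in DSY-c2 primed libraries. The part of these cell types in the carrier results was not tested. The count columns carry suffixes (L6 and L7 for all DSY-c2 primed and 2 of the 3 DSY-c2 naive libraries, L1 and L2 for the other naive library) whose meaning the labels do not give. Without naive replicate 3, so within 1 suffix pair, 37 members were lower and 17 higher in DSY-c2.

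In the embryo the direction was upward at implantation. In the epiblast 28 of 76 tested members were higher and 10 lower than the mean of the 5 ICM stages, against 44.8% of all genes called, 26.1% higher and 18.7% lower, with median log2 fold changes of 1.42 and 0.20. Higher calls included 5 of 6 tested SLC1 genes, 6 of 10 SLC38 genes and 5 of 10 SLC2 genes. In the morula 13 members were higher and 6 lower than the ICM, against 20.8% of all genes called, 12.2% higher and 8.65% lower. An F test over the 7 stages called 33 of 76 members, against 38% of all genes. Without the first hatched ICM library the counts were 31 higher and 9 lower in the epiblast and 10 higher and 7 lower in the morula. On simulated counts the epiblast and morula comparisons called only 2% and 4% of 2-fold changes. The simulation changed only 100 genes at each fold, far fewer than were called in the data. Its adjusted p is therefore stricter, and these shares cannot be carried over to the real comparisons. A member not called in the embryo may still differ.

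The epiblast libraries also held transcripts of other cell types. All 5 mesenchyme markers were called higher there, with a sum of 1424 to 1619 CPM against at most 31.7 CPM in any ICM library; DCN averaged 522 CPM and was listed at 0 in every morula and ICM library. The 4 yolk sac and gut epithelium markers summed to 534 to 605 CPM against at most 22.1 CPM, and 2 of them were called higher. Among these, APOB, a lipoprotein of absorptive epithelia, averaged 503 CPM, while VIL1 and AMN averaged 9.36 and 3.02 CPM. The part of these cells in the epiblast values below was not tested. With the size factors of DESeq2 the median of all genes in this comparison moved from 0.20 to 0.44 on the log2 scale. Then 31 members were higher and 9 lower. Over all genes 5126 were then higher and 2677 lower, against 4418 and 3161 in the main fit. The morula held 31 to 69.3 CPM of 4 oocyte markers against 0.644 to 9.14 CPM in ICM libraries, with 3 called higher, and their part in the morula values was not tested either. The 5 trophectoderm markers summed to 3.14 to 24.2 CPM in the morula and 75.3 to 86.8 CPM in the epiblast, against 5.61 to 1421 CPM in ICM libraries. Of them 1 was called lower in the morula, and 1 higher and 1 lower in the epiblast. The 7 primitive endoderm markers summed to 1321 to 2987 CPM in the morula, 2300 to 2486 CPM in the epiblast and 800.1 to 6445 CPM in ICM libraries, with 3 lower in the morula, and 2 higher and 2 lower in the epiblast. The part of these cell types in the comparisons with the ICM was not tested.

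Among the passive sugar carriers SLC2A1 (ENSCJAG00000003279), the GLUT1 glucose carrier found in most proliferating cells, was lower in naive cells and highest in the epiblast. Its levels were 183, 379 and 337 CPM in DSY-c2 primed and 85.4, 90.1 and 126 CPM in DSY-c2 naive libraries. In N40 they were 209, 317 and 312 CPM in primed and 145, 138 and 158 CPM in naive libraries. Primed and naive ranges did not overlap in either line, and SLC2A1 fell by 1.54 ± 0.25 (log2 fold change ± SE, adjusted p = 8.83e-05) in DSY-c2 and by 0.85 ± 0.25 (adjusted p = 0.00799) in N40. DSY127 and No.40 libraries lay between 147 and 249 CPM.

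The morula held 315, 372 and 261 CPM of SLC2A1, and the 15 ICM libraries had a lowest value of 99.4, a median of 230 and a highest of 2261 CPM. That highest value was the first hatched ICM library, and the other two hatched libraries were at 529 and 496 CPM. The epiblast libraries reached 2113, 2163 and 2340 CPM, above every ICM library but that 1. SLC2A1 was 2.93 ± 0.42 higher in the epiblast than in the ICM on the log2 scale (adjusted p = 3.94e-05).

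SLC2A3 (ENSCJAG00000018988), the high-affinity glucose carrier GLUT3, followed another course. It was at 213, 398 and 344 CPM in DSY-c2 primed and 326, 336 and 448 CPM in naive libraries, and at 430, 393 and 519 against 265, 392 and 422 CPM in N40. The ranges overlapped in both lines, and neither difference was called (0.25 ± 0.25, adjusted p = 0.404, and -0.24 ± 0.25, adjusted p = 0.427). Its highest embryo level was in the morula, at 748, 956 and 454 CPM. The ICM libraries ran from 26.3 through a median of 90.4 to 224 CPM, all below the morula, which was 2.77 ± 0.47 higher (adjusted p = 0.000545). The epiblast, at 260, 252 and 239 CPM, lay above the ICM range but was not called (adjusted p = 0.0597). SLC2A14, a near-copy of SLC2A3 in the human genome, was not matched by symbol, and whether reads are shared between such copies was not tested.

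The fructose carrier SLC2A5 (ENSCJAG00000000405, GLUT5) was highest in morula and ICM libraries and was higher in naive than in primed cells. It was at 0.621, 0.402 and 0.309 CPM in DSY-c2 primed and at 7.34, 5.76 and 11.3 CPM in naive libraries, a rise of 4.22 ± 0.35 (adjusted p = 5.52e-08). In N40 it went from 0.327, 0.430 and 0.420 to 5.29, 4.29 and 8.35 CPM, with an adjusted p of 6.96e-08. Every primed library of the 4 primed groups stayed below 0.7 CPM. Early ICM libraries held 121, 119 and 116 CPM of SLC2A5, later ICM libraries 11.9 to 44.8 CPM, and morula libraries 28.3, 51.0 and 48.3 CPM. In the epiblast only 2 counts were found over 3 libraries, so that the ICM level was 3830 times as high, with a 95% counting interval of 1060 to 31600 times. Such intervals cover counting error only, and they are too narrow where both mates of a read pair were counted. The epiblast was called lower (adjusted p = 6.49e-08).

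SLC2A8 (GLUT8), an intracellular hexose carrier, also rose in naive cells, by 0.50 ± 0.12 in DSY-c2 (adjusted p = 0.00227) and by 0.78 ± 0.12 in N40 (adjusted p = 3.86e-05). Its ICM libraries spanned 68.8 to 250 CPM and its epiblast libraries only 31.9 to 41.2 CPM, where it was lower (adjusted p = 0.000535). SLC2A4 (the insulin-responsive GLUT4) and SLC2A6 went the other way. SLC2A6 was at 26.4, 15.7 and 23.8 CPM in DSY-c2 primed and 6.33, 3.31 and 7.21 CPM in naive libraries, a log2 fold change of -1.93 ± 0.27 (adjusted p = 1.32e-05), and SLC2A4 fell by 0.997 ± 0.226 (adjusted p = 0.00122). In N40 the falls were 1.51 ± 0.26 for SLC2A6 (adjusted p = 0.000107) and 1.22 ± 0.23 for SLC2A4 (adjusted p = 0.000188). In the epiblast SLC2A6 reached 34.3 to 47.7 CPM against an ICM median of 0.936 CPM (adjusted p = 0.00676). SLC2A4 reached 107, 109 and 118 CPM against at most 53.0 CPM in the ICM, but its call (adjusted p = 0.0238) was lost when any 1 epiblast library was left out. SLC2A9, a urate carrier below 5 CPM everywhere, was lower in naive cells of both lines and higher in the epiblast. SLC2A2 (GLUT2), of liver, gut and pancreas, was at 8.35, 9.64 and 3.85 CPM in the epiblast and at most 0.0894 CPM in all other libraries. SLC2A13, the proton-coupled inositol carrier, passed no test.

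Among the sodium-coupled sugar carriers SLC5A1 (ENSCJAG00000011369, SGLT1), which concentrates glucose in absorptive epithelia, rose in naive cells. DSY-c2 primed libraries held 1.44, 1.18 and 1.62 CPM and naive libraries 33.3, 27.4 and 77.3 CPM. N40 primed libraries held 1.12, 1.45 and 1.63 CPM and naive libraries 11.5, 12.1 and 9.73 CPM. The rise was 5.06 ± 0.34 in DSY-c2 (adjusted p = 5.67e-09) and 3.07 ± 0.31 in N40 (adjusted p = 3.77e-07). The log2 fold change in DSY-c2 exceeded that in N40 by 1.99 ± 0.42 (adjusted p = 0.00492). In the embryo SLC5A1 reached 20.6 CPM in 1 blastocyst ICM library with an ICM median of 4.17 CPM, and the epiblast, at 0, 0.463 and 0 CPM, was not called lower (adjusted p = 0.0703). The renal SGLT2 gene SLC5A2 stayed below 1 CPM in every group. SLC5A10, a mannose and fructose carrier, had group means between 3.67 and 18.5 CPM and was called in no comparison.

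SLC5A6 (ENSCJAG00000001184), the sodium-coupled importer of biotin, pantothenate and lipoate, was higher in naive cells. It rose from 207, 238 and 218 CPM to 656, 703 and 637 CPM in DSY-c2 and from 311, 335 and 349 CPM to 698, 757 and 832 CPM in N40. These rises of 1.63 ± 0.10 (adjusted p = 2.98e-09) and 1.28 ± 0.10 (adjusted p = 2.39e-08) came without overlap of the states. ICM libraries held 330 to 2028 CPM with a median of 642 CPM, morula libraries 609, 1190 and 810 CPM and epiblast libraries 442, 451 and 439 CPM. Neither embryo comparison was called for SLC5A6 (adjusted p = 0.110 for the epiblast and 0.525 for the morula). SLC5A5, the iodide carrier, was called higher in N40 naive cells (0.86 ± 0.32, adjusted p = 0.0295), a call lost when any 1 of the 6 libraries was left out.

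**Figure D2:**
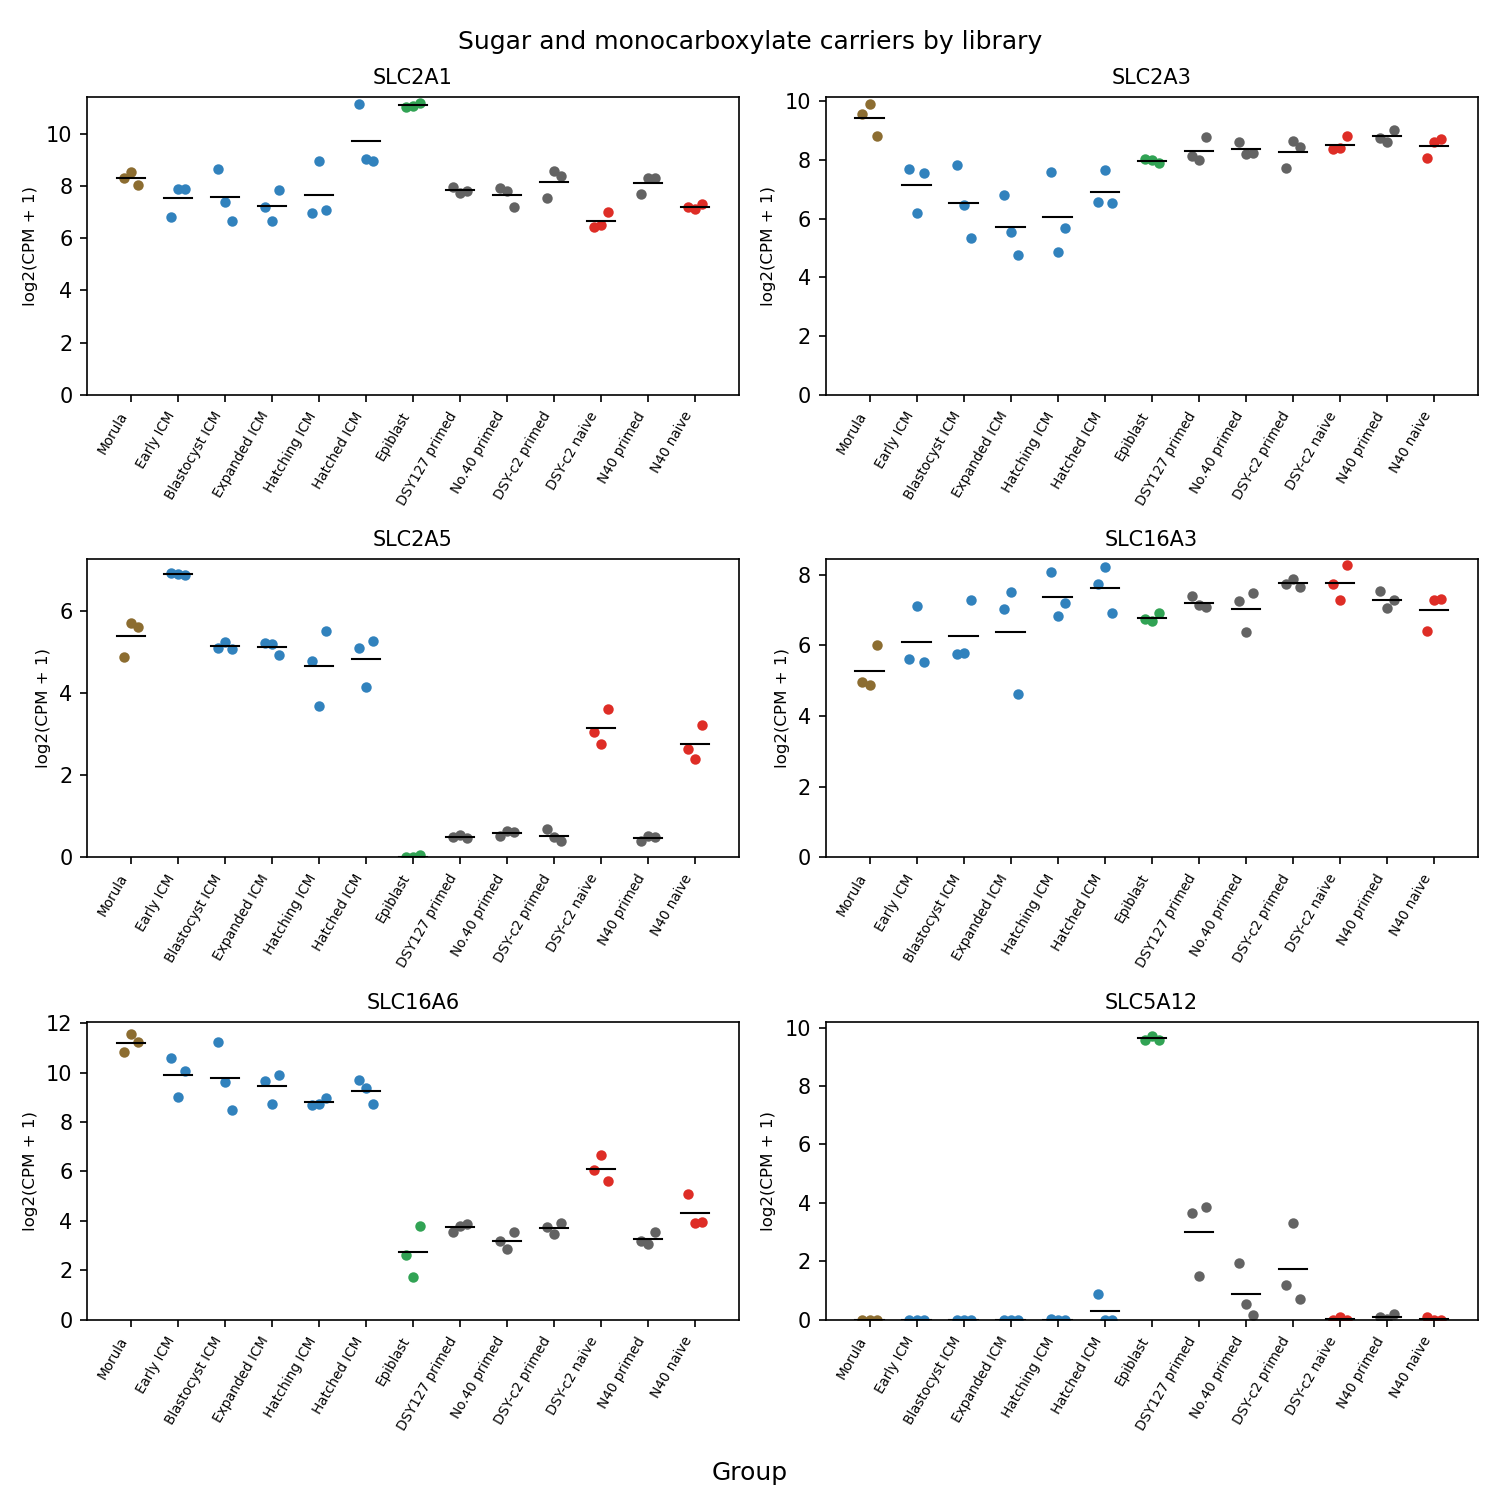
Levels of SLC2A1, SLC2A3, SLC2A5, SLC16A3, SLC16A6 and SLC5A12 on a log2(CPM + 1) axis, with 1 point per library and a bar at the mean of the 3 log values in each of the 13 groups. SLC2A3 and SLC16A6 are highest in the morula, SLC2A1 and SLC5A12 in the epiblast, and SLC2A5 and SLC16A6 are higher in naive (red) than in primed (grey) cells.

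The carriers of lactate and other monocarboxylates did not share a pattern over stages and states. SLC16A3 (ENSCJAG00000018034, MCT4), the lactate exporter of glycolytic cells, was at 214, 233 and 202 CPM in DSY-c2 primed and 212, 157 and 307 CPM in naive libraries, and at 186, 133 and 154 against 84.3, 154 and 159 CPM in N40. The libraries overlapped in both lines and no difference was called (adjusted p = 0.801 and 0.619). Its ICM libraries spanned 23.7 to 297 CPM with a median of 131 CPM. The epiblast, at 106, 103 and 120 CPM, lay within that span (adjusted p = 0.816), and the morula, at 30.3, 28.4 and 63.8 CPM, was not called lower (adjusted p = 0.0567). SLC16A1, the widely expressed MCT1, was not matched by symbol and was not analysed here.

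SLC16A6 (ENSCJAG00000000248, MCT7), a carrier linked to ketone body transport, was high before implantation. Morula libraries held 1805, 3049 and 2436 CPM, and ICM libraries ran from 356 through 666 to 2386 CPM. In the epiblast it was at 5.19, 2.35 and 13 CPM, below every earlier library. The log2 fold change of epiblast over ICM was -6.82 ± 0.78 (adjusted p = 5.57e-06). The morula was 1.69 ± 0.43 higher (adjusted p = 0.0104), a call lost without morula replicate 2. In ESCs SLC16A6 was at 12.6, 9.95 and 14.2 CPM in DSY-c2 primed and 65.2, 99.2 and 47.4 CPM in naive libraries, a rise of 2.56 ± 0.34 (adjusted p = 7.86e-06). In N40 it went from 8.15, 7.43 and 10.6 CPM to 33.2, 14.1 and 14.6 CPM, a rise of 1.32 ± 0.32 (adjusted p = 0.00219).

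SLC5A12 (ENSCJAG00000006336), a low-affinity sodium-coupled lactate carrier of kidney and gut, separated the epiblast from all earlier stages. The epiblast libraries held 764, 842 and 766 CPM. In the 18 morula and ICM libraries the highest value was 0.822 CPM, in the first hatched ICM library, and all but that library and 1 hatching library were at 0. The epiblast was called higher (adjusted p = 2.49e-06). In ESCs it was seen mainly in primed cells and unevenly: 11.7, 1.84 and 13.6 CPM in DSY127, 1.27, 8.98 and 0.633 CPM in DSY-c2 primed, and at most 0.136 CPM in N40. SLC5A12 fell in DSY-c2 naive cells to 0, 0.0796 and 0 CPM (adjusted p = 0.00213) and was not called in N40 (adjusted p = 0.456). The epiblast libraries are also those with APOB, as given above. SLC5A8, the high-affinity member of this pair, stayed at or below 12.2 CPM and was at 0 in all 3 morula libraries.

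Among the other MCT genes SLC16A9 (ENSCJAG00000006862), which exports carnitine, fell in naive cells of both lines. It was at 30.1, 27.3 and 30.4 CPM in DSY-c2 primed and 2.86, 1.69 and 1.28 CPM in naive libraries, a log2 fold change of -3.88 ± 0.61 (adjusted p = 6.54e-05). In N40 it went from 16.7, 20.8 and 16.1 CPM to 1.29, 0.0267 and 0.304 CPM (adjusted p = 1.07e-05). In the morula SLC16A9 was at 22.1, 91.8 and 49.8 CPM against an ICM median of 12.6 CPM (2.21 ± 0.72, adjusted p = 0.0384), a call lost in 10 of 24 alternative fits, among them those without morula replicate 2 or 3. SLC16A11, a carrier of liver, fell in both lines, by 1.95 ± 0.34 in DSY-c2 (adjusted p = 0.000115) and by 1.85 ± 0.33 in N40 (adjusted p = 0.000147). SLC16A5 rose in DSY-c2, by 0.71 ± 0.12 (adjusted p = 0.000112), with 0.26 ± 0.12 in N40 (adjusted p = 0.0737) and no called difference between lines (adjusted p = 0.0912). SLC16A13 was at 421 CPM in the first hatched ICM library and at 13 and 1.13 CPM in the other two.

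The amino acid exchangers are pairs of a heavy and a light chain. SLC3A2 (ENSCJAG00000018569, 4F2hc or CD98), the heavy chain of most of them, was at 523, 471 and 514 CPM in DSY-c2 primed and 342, 373 and 291 CPM in naive libraries, a log2 fold change of -0.55 ± 0.14 (adjusted p = 0.00238). N40 libraries overlapped, with 442, 621 and 604 CPM in primed and 473, 518 and 605 CPM in naive cells, and SLC3A2 was not called (adjusted p = 0.937). In the embryo it was at 346.1, 369 and 354.4 CPM in the morula, at 381 to 2306 CPM in the ICM with a median of 1044 CPM, and at 442, 445 and 445 CPM in the epiblast. The ICM was thus above both neighbours: the log2 fold change was -1.27 ± 0.29 for the epiblast (adjusted p = 0.00209) and -1.54 ± 0.30 for the morula (adjusted p = 0.00160). Hatched ICM libraries, at 2306, 1935 and 1400 CPM, were the highest stage.

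SLC7A5 (ENSCJAG00000008679, LAT1), the light chain that takes up large neutral amino acids such as leucine, was lower in DSY-c2 naive cells and low throughout the embryo. Its levels were 409, 444 and 434 CPM in DSY-c2 primed and 250, 250 and 141 CPM in naive libraries, a log2 fold change of -0.97 ± 0.22 (adjusted p = 0.00143). N40 libraries overlapped, at 277, 352 and 368 against 186, 268 and 286 CPM (-0.36 ± 0.22, adjusted p = 0.175), and the difference between lines was not called (adjusted p = 0.205). No embryo library exceeded 51.9 CPM and the epiblast held 10.7, 8.65 and 6.07 CPM, while no ESC library was below 141 CPM. ESC and embryo libraries were not tested against each other, and culture cannot be told apart from other differences between these sets of libraries.

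Another light chain, SLC7A7 (ENSCJAG00000008592, y+LAT1), which exports cationic amino acids in exchange for neutral ones, rose in both lines. DSY-c2 primed libraries held 16.3, 13.1 and 17.3 CPM and naive libraries 182, 209 and 274 CPM, a rise of 3.87 ± 0.20 (adjusted p = 4.55e-10). In N40 it went from 14.8, 18.3 and 20.6 CPM to 50.3, 45.0 and 65.4 CPM, a rise of 1.66 ± 0.18 (adjusted p = 9.22e-07), smaller than in DSY-c2 by 2.21 ± 0.26 (adjusted p = 7.87e-05). In the embryo SLC7A7 was at 18.9, 29.6 and 5.03 CPM in the morula, at 145 to 631 CPM in the ICM with a median of 494 CPM, and at 99.7, 86.3 and 83.3 CPM in the epiblast. These 3 ranges did not overlap. Over the ICM the log2 fold change was -4.61 ± 0.54 for the morula (adjusted p = 2.73e-05) and -2.30 ± 0.46 for the epiblast (adjusted p = 0.000656).

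SLC7A8 (ENSCJAG00000008020, LAT2), a neutral amino acid exchanger of epithelia, was near 0 in the morula, at 0.343, 2.42 and 0.764 CPM. The ICM libraries ran from 1.12 through 113 to 1597 CPM, with the top value in the first hatched library, and the morula was called lower (adjusted p = 0.00112). The epiblast libraries were at 357, 364 and 381 CPM and were not called (adjusted p = 0.108). In ESCs it fell in DSY-c2, from 25.8, 26.4 and 18.8 CPM to 7.41, 9.70 and 9.14 CPM (-1.40 ± 0.32, adjusted p = 0.00119). N40 naive libraries, at 20.7, 19.1 and 27.4 CPM, overlapped the primed ones, at 26.2, 14.7 and 12.6 CPM. The effect of SLC7A8 differed between lines by -1.81 ± 0.44 (adjusted p = 0.0122).

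SLC3A1 (ENSCJAG00000000766, rBAT), the heavy chain of the cystine and dibasic amino acid exchanger of kidney and gut, was near 0 in primed cells. DSY-c2 primed libraries held 0.0289, 0.0447 and 0.0294 CPM and naive libraries 15.3, 25.3 and 16 CPM (adjusted p = 1.33e-07). N40 primed libraries held 3 counts in all and naive libraries 4.15, 1.01 and 1.44 CPM, a ratio of 167 with a 95% counting interval of 57.1 to 809. ICM libraries ranged from 0.0414 to 95.6 CPM with a median of 13.7 CPM. The epiblast, at 0.470, 1.33 and 2.53 CPM, was called lower (adjusted p = 0.0417), a call lost without any 1 epiblast library, without blastocyst ICM replicate 2 or without hatched ICM replicate 1. SLC7A9, the light chain that joins SLC3A1, was called in no comparison and had ESC levels of 3.46 to 8.19 CPM.

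SLC7A11 (ENSCJAG00000003185, xCT), which takes up cystine for glutathione in exchange for glutamate, fell in naive cells. It was at 38.4, 20.2 and 45.4 CPM in DSY-c2 primed and 7.10, 8.12 and 1.23 CPM in naive libraries, a log2 fold change of -2.63 ± 0.54 (adjusted p = 0.000647). In N40 it went from 13.3, 35.4 and 30.8 CPM to 6.38, 7.44 and 6.76 CPM, a log2 fold change of -1.87 ± 0.52 (adjusted p = 0.00588). Of the 15 ICM libraries the median was 0, the highest being the first hatched one at 19.4 CPM, and the epiblast, at 6.47, 4.12 and 4.23 CPM, was called higher (adjusted p = 0.00777). SLC7A10, the small neutral amino acid exchanger Asc-1, fell from 13.7, 13.1 and 12.8 CPM to 1.17, 0.621 and 2.15 CPM in DSY-c2 (adjusted p = 3.54e-07) and from 21.4, 18.4 and 16.4 CPM to 1.80, 1.11 and 1.96 CPM in N40 (adjusted p = 1.58e-07). SLC7A6 (y+LAT2), of the same transport class as SLC7A7, went the opposite way to it, falling by 1.10 ± 0.17 in DSY-c2 (adjusted p = 3.58e-05) and by 1.61 ± 0.17 in N40 (adjusted p = 6.15e-07). SLC7A6OS, which overlaps SLC7A6, was called in neither line.

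**Figure D3:**
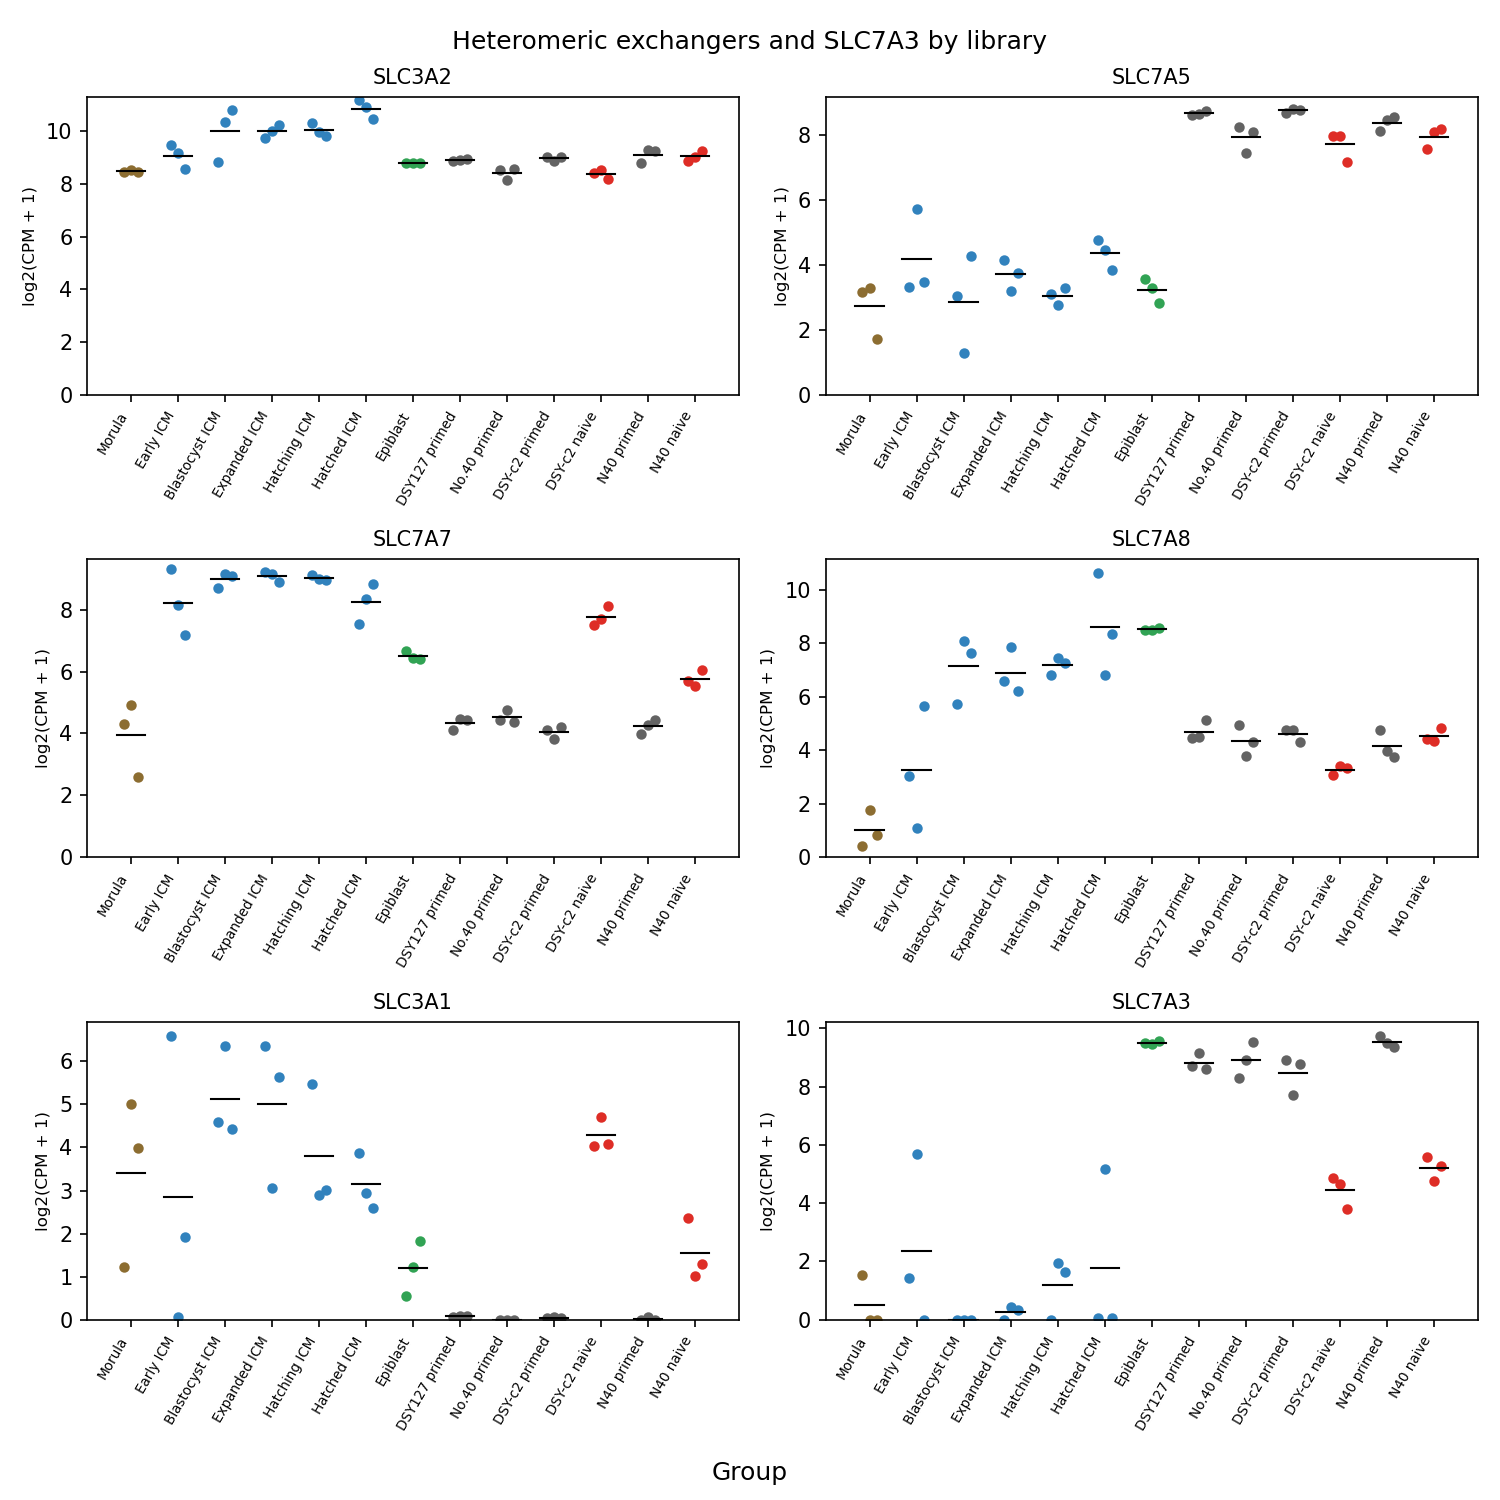
Levels of SLC3A2, SLC7A5, SLC7A7, SLC7A8, SLC3A1 and SLC7A3 on a log2(CPM + 1) axis, with 1 point per library and a bar at the mean of the 3 log values in each of the 13 groups. SLC7A7 is high in the ICM and higher in naive than in primed cells, SLC3A1 is near 0 in primed cells and higher in DSY-c2 than in N40 naive cells, SLC7A3 is high in the epiblast and primed cells, and SLC7A5 is high in ESCs and low in all embryo stages.

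The cationic amino acid carriers that act without a heavy chain import arginine and lysine. Of these SLC7A3 (ENSCJAG00000013431, CAT3) tracked the primed state. It was at 479, 210 and 442 CPM in DSY-c2 primed and 28.3, 24.4 and 13.1 CPM in naive libraries, a log2 fold change of -4.07 ± 0.41 (adjusted p = 8.91e-07). N40 primed libraries held 861, 723 and 664 CPM and naive libraries 47.2, 25.9 and 37.5 CPM, a log2 fold change of -4.27 ± 0.41 (adjusted p = 4.68e-07). DSY127 and No.40 libraries lay at 311 to 750 CPM. In the epiblast SLC7A3 was at 729, 704 and 758 CPM. Its ICM median was 0.0433 CPM, although 1 early and 1 hatched library reached 51.0 and 35.5 CPM, and the epiblast was called higher (adjusted p = 0.000171).

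SLC7A1 (CAT1) did not share this pattern. ESC libraries held 74.8 to 129 CPM and neither naive comparison was called (adjusted p = 0.0622 in DSY-c2 and 0.607 in N40). Embryo libraries stayed at or below 54.3 CPM, and the epiblast, at 4.44, 0.810 and 0.832 CPM, was called lower than the ICM (-2.41 ± 0.83, adjusted p = 0.0256), a call lost without epiblast replicate 2 or 3. SLC7A2 (CAT2) was higher in N40 naive cells by 1.08 ± 0.28 (adjusted p = 0.00278) and was not called in DSY-c2. SLC7A4, a relative of these genes whose transport is unsettled, was called in opposite directions. It rose from 8.59, 7.57 and 9.32 CPM to 21.8, 51.2 and 11.6 CPM in DSY-c2 (1.76 ± 0.37, adjusted p = 0.000684). In N40 it fell from 11, 11.9 and 8.79 CPM to 6.5, 3.73 and 4.04 CPM (-1.07 ± 0.37, adjusted p = 0.0186), a call lost without N40 naive replicate 2 or 3. In the morula SLC7A4 held 26.9, 84.8 and 62.4 CPM against an ICM median of 13.4 CPM (2.32 ± 0.76, adjusted p = 0.0387), a call lost without any 1 morula library. SLC7A14, a lysosomal relative, was at 0 in every ICM library and at 1.22, 1.29 and 6.71 CPM in the epiblast, at least 760-fold higher with the floor set at 3 counts summed over the 15 ICM libraries.

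The SLC1 family imports glutamate, or exchanges neutral amino acids. SLC1A5 (ENSCJAG00000011717, ASCT2), the exchanger best known for glutamine uptake, was at 46.0, 38.4 and 51.5 CPM in DSY-c2 primed and 6.40, 6.42 and 3.57 CPM in naive libraries, a log2 fold change of -3.02 ± 0.26 (adjusted p = 8.01e-08). In N40 it fell by 2.77 ± 0.25 (adjusted p = 1.3e-07), from 49.3, 77.8 and 69.1 CPM to 6.20, 8.54 and 12.6 CPM. ICM libraries had a median of 0.310 CPM and a highest value of 29.9 CPM in hatched replicate 2. The epiblast, at 36.6, 34.8 and 53.1 CPM, lay above them all (adjusted p = 0.00881).

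Its relative SLC1A4 (ASCT1), which carries serine and alanine, fell from 153, 166 and 163 CPM to 34.8, 37.3 and 35.3 CPM in DSY-c2, by 2.13 ± 0.17 (adjusted p = 4.02e-08). In N40 it fell from 100, 123 and 119 CPM to 39.9, 61.5 and 75.1 CPM, by 0.88 ± 0.17 (adjusted p = 0.000236). The fall of SLC1A4 was larger in DSY-c2 by 1.25 ± 0.23 (adjusted p = 0.00226). The epiblast held 96.2, 93.1 and 103 CPM against an ICM median of 7.12 CPM (adjusted p = 0.00450). Among the glutamate carriers SLC1A3 (GLAST) was the exception in the embryo. Its ICM libraries held 1.64 to 41.3 CPM and its epiblast libraries 0.0564, 0.867 and 0 CPM, a lower call (adjusted p = 0.0234) that was lost without epiblast replicate 1 or 3. SLC1A3 fell in both lines, by 2.27 ± 0.61 (adjusted p = 0.00477) and 1.89 ± 0.61 (adjusted p = 0.0142, lost without N40 naive replicate 3).

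The other glutamate carriers tested in the embryo, SLC1A1, SLC1A2 and SLC1A6, were called higher in the epiblast than in the ICM. SLC1A1 was at only 0, 0.154 and 0.370 CPM in the epiblast, overlapping the ICM, and its call was lost without epiblast replicate 3, with DESeq2 as the test and with a replicate block (adjusted p up to 0.252). SLC1A6 (EAAT4) was at 20.1, 15.4 and 13.5 CPM in the epiblast against at most 5.73 CPM in the ICM (adjusted p = 0.000264). SLC1A1 (EAAT3) was called higher in the morula too, at 5.81, 3.19 and 0 CPM against at most 0.0757 CPM in the ICM (adjusted p = 0.00152). It was at 0 in all 3 N40 naive libraries, at least 41.3-fold lower than in N40 primed cells if 3 counts summed over the naive libraries are taken as the floor. SLC1A2 (GLT-1) went from 6.80, 13.1 and 6.39 CPM to 0.272, 0.287 and 0.231 CPM in DSY-c2 and from 1.53, 1.68 and 1.73 CPM to 1.08, 0.481 and 0.828 CPM in N40. SLC1A2 was called lower in N40 (adjusted p = 0.0215), though not without naive replicate 2, and the effects differed between lines by -4.05 ± 0.51 (adjusted p = 0.000147).

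In the SLC38 family of sodium-coupled neutral amino acid carriers, SLC38A2 (ENSCJAG00000012956, SNAT2), which is induced when amino acids run short, fell by near-equal amounts in both lines. It was at 344, 326 and 347 CPM in DSY-c2 primed and 165, 162 and 122 CPM in naive libraries, and at 223, 227 and 274 against 110, 92.8 and 103 CPM in N40. The falls were 1.15 ± 0.11 (adjusted p = 2.92e-07) and 1.17 ± 0.11 (adjusted p = 1.9e-07). Its ICM libraries ranged from 0.850 to 1040 CPM with a median of 207 CPM. The epiblast, at 802, 879 and 740 CPM, was called higher (1.96 ± 0.72, adjusted p = 0.0347), a call lost without any 1 epiblast library and without expanded ICM replicate 1 or 3.

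SLC38A1 (SNAT1), a glutamine importer, was at 75.1, 85.9 and 92.6 CPM in DSY-c2 primed and 26.6, 24.6 and 10.3 CPM in naive libraries, a log2 fold change of -2.01 ± 0.28 (adjusted p = 1.41e-05). In N40 it fell by 2.33 ± 0.28 (adjusted p = 3.03e-06), from 43.5, 57.6 and 59.4 CPM to 7.35, 10.5 and 12.5 CPM. SLC38A5 (ENSCJAG00000014797, SNAT5), which also moves glutamine and serine, fell in both lines. DSY-c2 libraries went from 8.84, 11.2 and 12.9 CPM to 0.288, 0.589 and 0.202 CPM, a log2 fold change of -4.90 ± 0.42 (adjusted p = 7.97e-08). N40 libraries went from 11.7, 19.9 and 15.4 CPM to 0.422, 0.107 and 0.193 CPM, a log2 fold change of -5.94 ± 0.45 (adjusted p = 1.3e-08). In the embryo SLC38A5 was at 18.6, 25.6 and 19.9 CPM in the epiblast and at most 0.0762 CPM in every earlier library (adjusted p = 4.26e-06). SLC38A1 was at 43.9, 43.7 and 21.8 CPM in the epiblast against at most 19.9 CPM in the ICM (adjusted p = 0.00822).

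SLC38A4 (SNAT4), an imprinted gene in several mammals, was at 83.8, 52.1 and 65.9 CPM in DSY-c2 primed and 36.2, 26.6 and 10.3 CPM in naive libraries (log2 fold change of -1.43 ± 0.36, adjusted p = 0.00320). In N40 it fell further, from 50.8, 25.1 and 26.3 CPM to 2.88, 2.22 and 2.25 CPM (-3.72 ± 0.40, adjusted p = 1.2e-06), and the lines differed by 2.29 ± 0.52 (adjusted p = 0.00888). It was at 0 in all morula, early ICM and blastocyst ICM libraries, and at 64.4, 53.7 and 72.2 CPM in the epiblast (adjusted p = 0.00170). SLC38A9 (ENSCJAG00000001907), the lysosomal arginine sensor that signals to mTORC1, was the SLC38 gene higher in naive cells of both lines. It rose from 49, 43.5 and 45.8 CPM to 92.1, 88.8 and 77.7 CPM in DSY-c2 (0.94 ± 0.09, adjusted p = 2.29e-07) and from 47.8, 49.3 and 45.4 CPM to 87.9, 90.6 and 91.0 CPM in N40 (0.998 ± 0.0891, adjusted p = 8.57e-08). In the morula SLC38A9 held 211, 219 and 165 CPM against an ICM median of 79.2 CPM (adjusted p = 0.00771). SLC38A8 was at 0, 0.0576 and 0.382 CPM in the morula and 0.202 to 66.8 CPM in the ICM (adjusted p = 0.00863). SLC38A7, a lysosomal glutamine exporter, was called in neither line, and its higher call in the epiblast (adjusted p = 0.0467) was lost in 8 of 24 alternative fits, among them those without any 1 epiblast library.

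**Figure D4:**
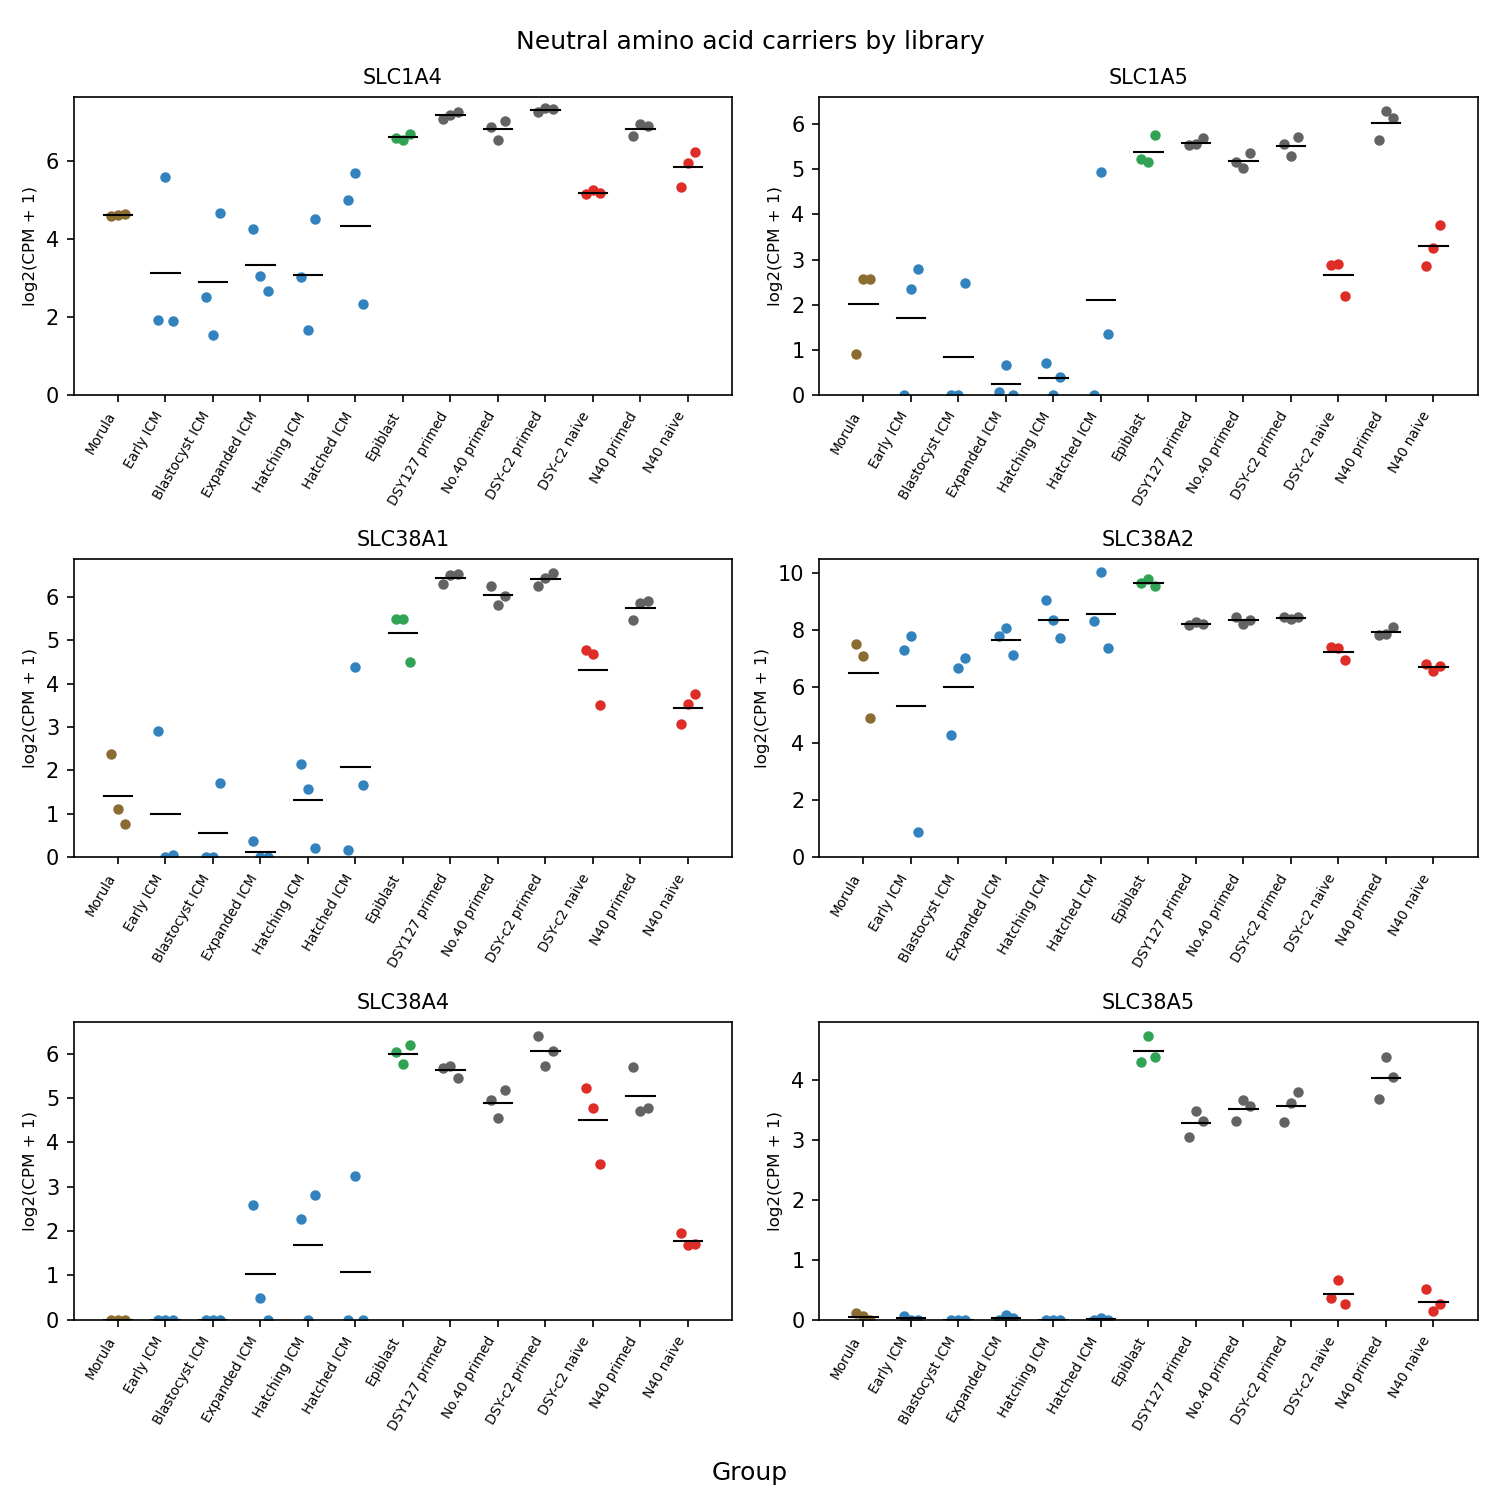
Levels of SLC1A4, SLC1A5, SLC38A1, SLC38A2, SLC38A4 and SLC38A5 on a log2(CPM + 1) axis, with 1 point per library and a bar at the mean of the 3 log values in each of the 13 groups. All 6 genes are lower in naive (red) than in primed (grey) cells of the same line, and all 6 have higher epiblast (green) than mean ICM (blue) levels.

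The system L facilitators of the SLC43 family add 3 genes. SLC43A2 (LAT4) was at 112, 136 and 115 CPM in DSY-c2 primed and 68.4, 67.4 and 68.8 CPM in naive libraries, a log2 fold change of -0.79 ± 0.10 (adjusted p = 2.73e-06). In N40 it fell by 1.01 ± 0.10 (adjusted p = 1.54e-07), and in the embryo it was called in no comparison. SLC43A3, which carries purine bases, had 15.5, 7.94 and 12.8 CPM in the epiblast against at most 2.47 CPM before (adjusted p = 0.000328). It fell in naive cells of DSY-c2 (adjusted p = 5.34e-05) and N40 (adjusted p = 1.36e-05), from primed levels of 1.83 to 3.05 CPM.

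The SLC6 family couples neurotransmitter, amino acid and osmolyte uptake to sodium and chloride. SLC6A4 (ENSCJAG00000013726), its serotonin carrier, fell in naive cells of both lines, and further in N40. DSY-c2 went from 22.2, 20.3 and 28.4 CPM to 12.1, 13.1 and 12.6 CPM, a log2 fold change of -0.87 ± 0.18 (adjusted p = 0.000650). N40 went from 15.6, 22.4 and 22.3 CPM to 0.605, 0.855 and 0.608 CPM, a log2 fold change of -4.78 ± 0.22 (adjusted p = 9.91e-11). The difference between lines of 3.91 ± 0.28 was called (adjusted p = 1.19e-06). SLC6A4 was at 67.3, 50.1 and 61.2 CPM in the epiblast against an ICM median of 0.0414 CPM (adjusted p = 0.000273).

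SLC6A6, the taurine carrier, rose in DSY-c2 by 0.78 ± 0.17 (adjusted p = 0.000867) and was not called in N40. In the epiblast it was at 0.808, 2.20 and 1.52 CPM, below every ICM library (4.58 to 28.8 CPM, adjusted p = 0.000444). SLC6A8, the creatine carrier, fell in DSY-c2 by 0.83 ± 0.23 (adjusted p = 0.00542), and its highest embryo value, 309 CPM, was again the first hatched ICM library. SLC6A15, a carrier of branched-chain amino acids and proline, fell in N40 by 2.47 ± 0.62 (adjusted p = 0.00303). Its DSY-c2 naive libraries, at 26.2, 35.6 and 4.45 CPM, did not move together. SLC6A15 ranged in the ICM from 0.0395 to 414 CPM and reached 117, 656 and 373 CPM in the morula without a call (adjusted p = 0.0943). SLC6A20, an imino acid carrier, rose in both lines, by 1.46 ± 0.24 (adjusted p = 6.58e-05) and 1.32 ± 0.24 (adjusted p = 0.000143), to 4.48 to 5.75 CPM.

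Seen over both lines, 29 members were lower in both comparisons, against 22% of all genes tested, and 9 were higher in both, against 22.9%. Only SLC7A4 was called in opposite directions, as were 1.12% of all genes. The 9 higher in both were SLC2A5, SLC2A8, SLC3A1, SLC5A1, SLC5A6, SLC6A20, SLC7A7, SLC16A6 and SLC38A9. Across the 78 tested members the 2 log2 fold changes had a Pearson r of 0.73, and across all 17957 genes 0.749, given as a description only. A test of the difference called 15 of 78 members, against 15.1% of all genes. The effect was higher in DSY-c2 for 5 of them, against 6.55% of all genes, and lower for 10, against 8.57%. The difference of naive effects can come from either state: SLC16A10, an aromatic amino acid carrier, was at 3.93, 1.85 and 1.62 CPM in DSY-c2 primed but at most 0.0813 CPM in N40 primed libraries.

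**Figure D5:**
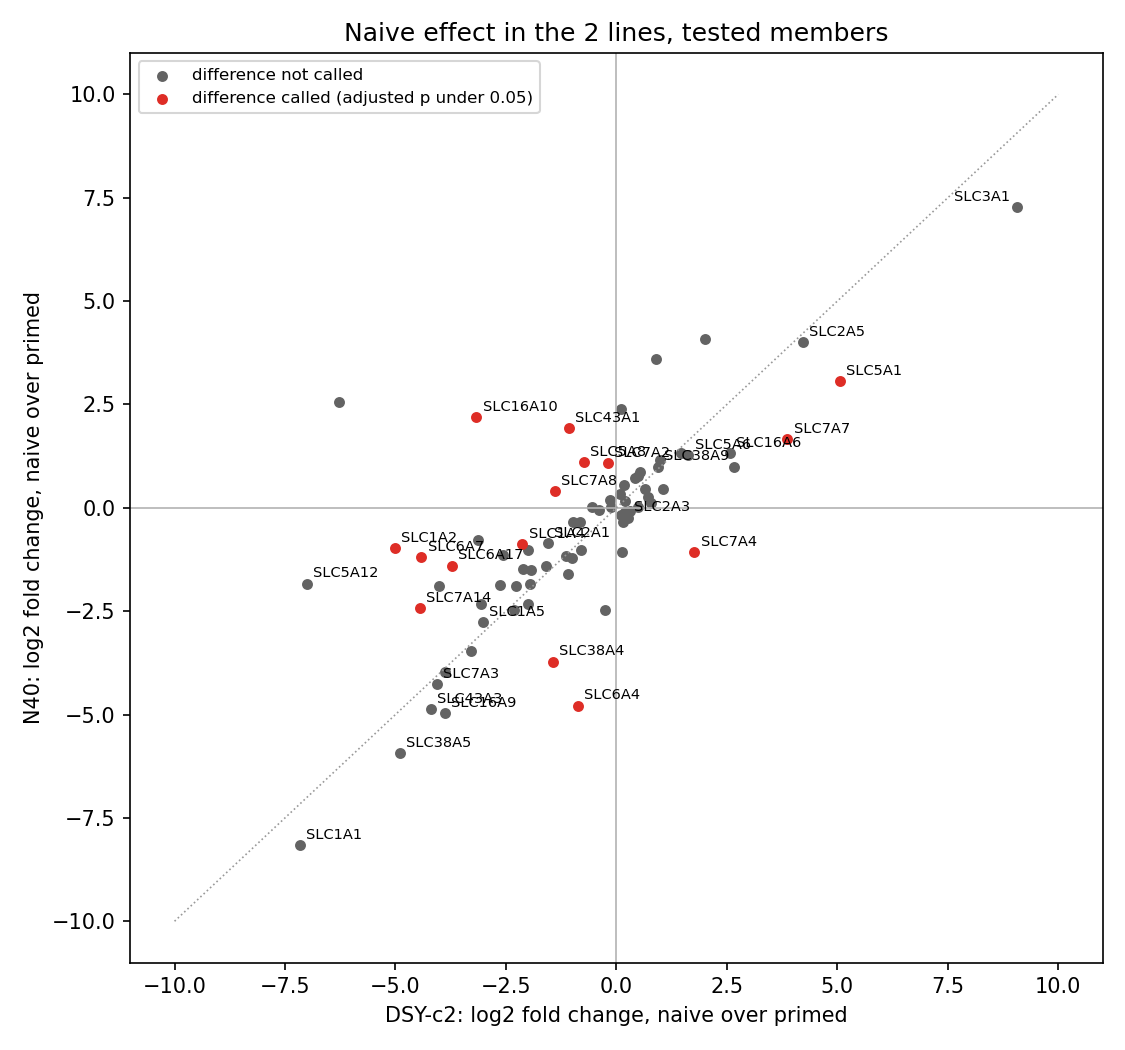
Log2 fold change of naive over primed cells for the 78 tested members, DSY-c2 on the horizontal and N40 on the vertical axis, with the dotted line marking equal effects. Red points are the 15 members whose effects differed between lines. The 29 members lower in both lines lie at the lower left, SLC6A4 lies below the dotted line, and SLC7A4 lies right of 0 and below 0.

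The calls of the conversion were set beside those of implantation, which use other libraries. All 29 members lower in naive cells of both lines were tested in the embryo, and 22 of them (75.9%) were called higher in the epiblast than in the ICM. These 22 make up 78.6% of the 28 members higher in the epiblast. Over all genes lower in both lines 61.8% of those tested in the embryo were higher in the epiblast, and they make up 48.5% of the genes higher there. Only SLC1A3 was lower in both naive comparisons and lower in the epiblast. Of the 9 members higher in naive cells of both lines, 5 (SLC2A5, SLC2A8, SLC3A1, SLC7A7 and SLC16A6) were lower in the epiblast, against 38.3% over all genes higher in both lines. These shares were not tested against each other.

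Genes that work with the carriers were read from a list of 20, of which 17 were matched by symbol. In DSY-c2 naive cells 7 were higher and 6 lower, against 29.6% and 29.3% of all genes. In N40 7 were higher and 8 lower, against 32.3% and 28.7%. BSG (basigin), the glycoprotein that brings lactate-carrying MCTs to the surface, rose by 1.27 ± 0.09 in DSY-c2 (adjusted p = 7.66e-09) and by 1.02 ± 0.09 in N40 (adjusted p = 5.67e-08). EMB (embigin), an alternative partner, fell by 2.71 ± 0.17 (adjusted p = 2.55e-09) and by 2.48 ± 0.17 (adjusted p = 4.13e-09). HK2, a hexokinase that traps glucose in the cell, rose by 2.62 ± 0.33 (adjusted p = 9.08e-06) and 3.29 ± 0.34 (adjusted p = 9.85e-07) while SLC2A1 fell. GLUL, which makes glutamine, fell by 2.76 ± 0.28 (adjusted p = 7.14e-07) and 2.84 ± 0.28 (adjusted p = 4.29e-07). In the epiblast 5 of the 17 were higher and 5 lower than in the ICM, against 26.1% and 18.7% of all genes. In the morula 4 were higher and 2 lower, against 12.2% and 8.65%. EMB averaged 17.2 CPM in the epiblast and at most 0.0135 CPM in any ICM group (adjusted p = 6.05e-05), and BSG was lower in the epiblast than in the ICM (-1.14 ± 0.28, adjusted p = 0.00369).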

How the data were processed

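Counts per gene were deposited by the authors. Per the labels' protocols RNA was extracted with RNeasy kits and sequenced from TruSeq Stranded mRNA libraries. Per the submitters' processing notes Trim Galore 0.4.0, STAR 2.5.3a and featureCounts 1.5.2 were used. Build, annotation and strand setting were not given in the sources used. The 2 run columns of a library were summed (their chi-square per gene was 1.91 to 2.00, against at least 28.1 between libraries of a group, over genes with at least 50 counts). Small counts tended to be even (65% from 1 to 49, 50.8% from 500 up), and both mates of a pair may each have been counted. A further 6 columns were not used. The carriers and gene lists were chosen with earlier results of these data known.

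Separate fits for the 18 ESC and the 21 embryo libraries used edgeR 4.0.16 in R 4.3.3 (filterByExpr, TMM, quasi-likelihood tests, Benjamini-Hochberg adjustment over all 17957 and 16929 genes tested); called means adjusted p under 0.05. Contrasts were naive against primed in each line, their difference, and epiblast or morula against the mean of the 5 ICM stages, with an F test over 7 stages. Folds against a group at 0 used a floor of 3 counts. The SE was derived from the test, as the absolute log2 fold change over the square root of its F statistic.

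Genes given by library were 8 main carriers found by symbol and, per contrast, up to 6 largest rises and 6 largest falls among called members with at least 10 CPM in the higher group; a few others are given by library after their values were seen, and the rest by ranges and counts. Alternatives were DESeq2 1.42.0 as the test, its size factors, no filter on low counts, halved counts, only the groups compared, a replicate block, the column suffix as a term (added after seeing the data) and each library left out. The scripts were tested on simulated data with known changes. Of the 2-fold changes 55% were called in each naive comparison, 2% in the epiblast and 4% in the morula. Of the 4-fold changes 78% were called in DSY-c2, 70% in N40, 30% in the epiblast and 27% in the morula. Each simulation changed only 100 genes at each fold, far fewer than were called in the data. The adjusted p is stricter there, so these shares may be too low for the real comparisons. Tables and figures were made with Python 3.11.15. A few genes are counted but not reported here by name.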

Additional observations from a re-analysis of the deposited data

Results flagged for a closer look

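For 15 of 78 tested members the naive effect differed between the lines (edgeR interaction of line and state, adjusted p under 0.05). Over all genes tested 15.1% were called, a share near that of the members. Values are the log2 fold change in DSY-c2 minus that in N40. Among amino acid exchangers and cationic carriers the difference was 2.83 for SLC7A4, 2.21 for SLC7A7, -1.81 for SLC7A8, -1.27 for SLC7A2 and -2.03 for SLC7A14. It was -4.05 for SLC1A2 and -1.25 for SLC1A4, which fell further in DSY-c2, and 2.29 for SLC38A4, which fell further in N40. The aromatic amino acid carrier SLC16A10 differed by -5.35 and the system L gene SLC43A1 by -2.99. SLC5A1, the glucose carrier, differed by 1.99 and SLC5A8, a lactate carrier, by -1.84. In the SLC6 family the difference was 3.91 for SLC6A4, -3.22 for SLC6A7, a proline carrier, and -2.33 for SLC6A17. Of the 15 calls 9 were kept in all 18 alternative fits. SLC5A8 kept its call in 9 of them, SLC7A2 in 7, SLC6A7 and SLC7A14 in 15, SLC43A1 in 16 and SLC16A10 in 17, the last losing it without N40 naive replicate 1.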

How the results depend on the processing

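Of the called members 49 of 56 in DSY-c2, 36 of 48 in N40, 9 of 15 in the difference, 28 of 38 in the epiblast and 9 of 19 in the morula kept their call in every alternative. With DESeq2 as the test 8 members had a higher effect in DSY-c2 than in N40 (5 with edgeR) and 12 were lower in the morula (6 with edgeR). Fitting only the groups compared left 6 members higher in the morula (13 in the full fit). Leaving out 1 library gave 14 to 17 higher and 37 to 40 lower members in DSY-c2, 13 to 17 and 29 to 32 in N40, 5 to 10 and 5 to 10 in the difference, 23 to 32 and 6 to 11 in the epiblast, 6 to 12 and 5 to 8 in the morula and 26 to 36 by the F test. The higher count of the difference was 10 without DSY-c2 naive replicate 3, and its lower count 5 without DSY-c2 naive replicate 2. The lower count in the epiblast was 6 without replicate 3 of the epiblast. The higher count in the morula was 6 without morula replicate 2, 8 and 7 without replicates 1 and 3, 8 without expanded ICM replicate 2 and 7 without hatching ICM replicate 2.

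No paired analysis of DSY-c2 was possible because its groups share only replicate number 2. Elsewhere no pairing by number was seen: same-numbered N40 libraries had correlations of -0.0904, -0.0341 and -0.0275, and embryo libraries -0.172 to 0.107. These correlate deviations from means of 3 libraries, so weak pairing could be missed. With a replicate block the counts were 15 higher and 28 lower in N40, 27 and 8 in the epiblast, 7 and 6 in the morula and 26 by the F test. With the column suffix as a term, chosen after seeing the data, they were 16 and 38 in DSY-c2 and 17 and 31 in N40.

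For 2 of the main carriers the sign turned in comparisons where they were not called, and the cause was not tested. SLC16A3 in DSY-c2 was -0.00441 with the suffix term and -0.213 to 0.273 with a library left out. SLC3A2 in N40 was -0.0665 with DESeq2 or its size factors, -0.0931 with no filter, -0.083 with only the groups compared, -0.0743 with the replicate block and -0.21 to 0.0164 with a library left out. SLC16A3 in the epiblast was 0.0679 with DESeq2 or its size factors and -0.35 to 0.072 with a library left out. SLC16A10 in N40, not called with all libraries, was -0.36 to 3.44 with a library left out and was called in 4 of 11 alternatives. The filter on low counts left 5 members in the ESCs and 7 in the embryo without a test.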
